A study of Mus musculus with 4 samples.

Results

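The loss of p53 in mouse embryonic fibroblasts that already lack Zfp871 was described by setting 1 RNA sequencing library of Trp53-/-; Zfp871-/- cells (double null) against 1 library of Zfp871-/- cells. Genes were included where either of these libraries reached a CPM (counts scaled to library size) of 1, which 13499 of the 54532 gene IDs in the count table did. Both libraries came from primary fibroblasts of C57BL/6 embryos taken at 12.5 to 13.5 days post-coitum and grown in DMEM with serum, and RNA was taken at passage 4 from cultures still dividing exponentially. Both genotypes are labelled Zfp871-/-, so the compared libraries differ by label in Trp53 alone. The double-null cells came from an intercross of Zfp871+/-; Trp53+/- mice and the Zfp871-/- cells from an intercross of Zfp871+/- mice, so the cross and Trp53 loss cannot be told apart. The sources used here do not state the design of the alleles or the number of embryos behind each culture. A WT and a Trp53-/- library of the same strain, age and passage give the same contrast with Zfp871 present, and share no library with the pair described here.

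p53, the product of Trp53, is a transcription factor that is held at low levels by the ubiquitin ligase Mdm2 and accumulates when DNA is damaged or growth signals are abnormal. Once active, it binds paired half-sites near its target genes and turns on inhibitors of the cell cycle, effectors of cell death, repair factors and its own inhibitors, among them Mdm2. Through the cell cycle inhibitor p21, encoded by Cdkn1a, it also keeps many genes of replication and mitosis repressed, by way of the CHR and E2F elements of their promoters. Cultured embryonic fibroblasts keep p53 partly active because of culture stress, and cells without it escape the arrest that ends their growth. Zfp871 encodes a zinc finger protein that the title of the series ties to p53 and Mdm2.

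The Zfp871-/- library held 19974054 counts and the double-null library 22324599, of which 97.7% and 98.4% fell on protein-coding genes. No genotype had a second library, so every ratio compares libraries, has no replicate check and carries no p-value. Ratios are given as the log2 of the double null over Zfp871-/- after TMM scaling, with an exact 95% interval of the counts. The reads carry no molecular identifiers and are thus not independent molecules, so the intervals cover counting error alone.

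Trp53 (chr11:69580359-69591873 in mm10) had 2413 counts in Zfp871-/- and 1382 in the double null (log2 -1.11, -1.20 to -1.01). In the other pair it had 2383 counts in WT and 1233 in Trp53-/-. Reads of Trp53 were therefore lower in both libraries labelled null but far from absent, and the sources used here do not state which part of the gene is deleted. Zfp871 (chr17:32765496-32788287) had 327 and 307 counts in the compared libraries (log2 -0.39, -0.62 to -0.16), against 660 in WT and 784 in Trp53-/-. Both Zfp871-null libraries thus lay below both libraries with the gene. Xist, the RNA that coats the inactive X chromosome, had 9152 and 14475 counts, and none of 7 Y-linked genes had more than 1 count in any of the 4 libraries.

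All 12 fibroblast genes listed as markers passed the filter. They were mostly lower in the double null, with a median log2 ratio of -0.55, 9 of 12 intervals below 0 and 3 of 12 genes at least 2-fold lower. Over all genes, 32.3% of intervals lay below 0 and 7.04% of genes were at least 2-fold lower. Their summed level was 45181 CPM in Zfp871-/- and 32797 CPM in the double null, so the list stayed abundant in both. Vim, an intermediate filament of mesenchymal cells, had 71955 and 68335 counts (log2 -0.38, -0.39 to -0.36), and Thy1, a fibroblast surface protein, had 16380 and 22282 (log2 0.14, 0.11 to 0.17). None of the 11 erythroid genes and none of 18 markers of leukocytes other than macrophages reached the filter.

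Without p53, 823 of 13499 genes were at least 2-fold higher (6.10%) and 951 were lower by that margin (7.04%) than in Zfp871-/- cells. These shares over all genes are the background for each count of list members below. The median ratio over all genes was 0.00, and 328 genes were higher and 291 lower by at least 4-fold. Beyond 16-fold, 75 genes were higher and 41 lower. Scaling by total counts moves every ratio up by 0.14 and the split to 1047 higher and 797 lower. The 25% of genes with the lowest FPKM held 498 of the higher and 587 of the lower genes, and the highest 25% held 42 and 91.

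**Figure D1:**
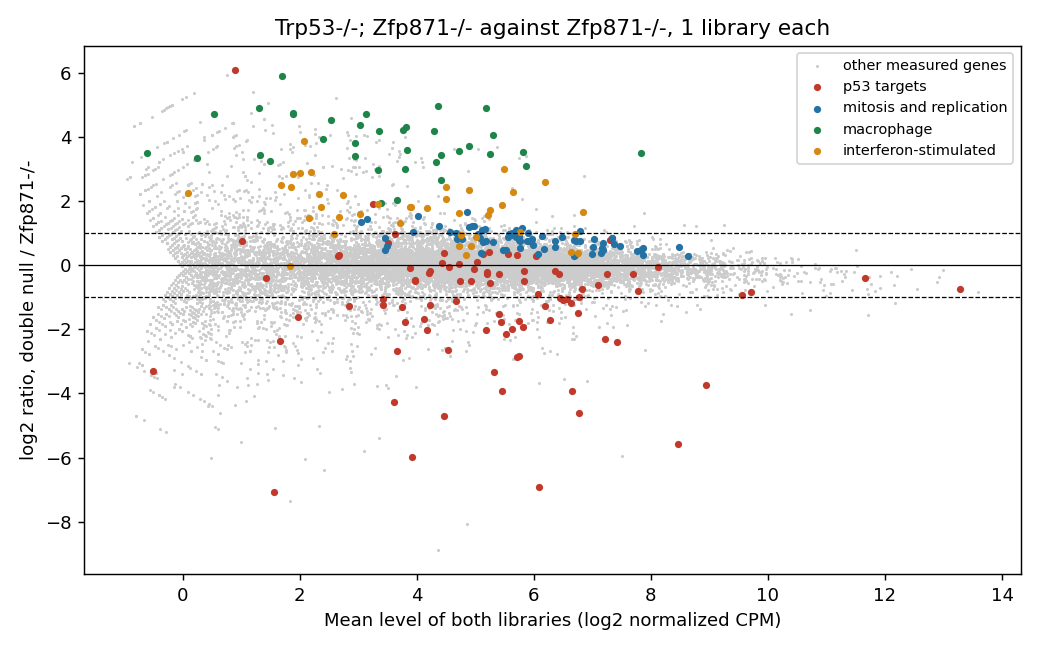
Each point is 1 of 13499 genes, with the log2 of the mean normalized CPM of both libraries on the horizontal axis and the log2 ratio of the double null to Zfp871-/- on the vertical axis, and dashed lines at 2-fold. Among the coloured lists the p53 targets (red) reach furthest below 0, the macrophage genes (green) have the highest median, and the mitosis and replication genes (blue) form a narrow band above 0.

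The protein-coding genes that stood furthest below their level in Zfp871-/- cells were Ano3, Inka2, Eda2r, Gm47283, Olfr1318, Cdkn1a, Ddit4l, Ngfr, Trp53inp1, 9530053A07Rik, Dglucy, Klhdc7a, Col10a1, Ephx1 and Perp. Of these 15 genes, 7 belong to the lists of p53 targets. The 15 that stood furthest above were Mmp12, Lilr4b, Myo1g, Cd52, Cd300c2, Fcgr3, Ctss, Ms4a6d, Clec4d, C1qc, Clec4e, Fcer1g, Tyrobp, Clec4a2 and Casp1. Of those, 10 belong to the macrophage list. Both kinds of list were written with earlier results of these data in view, so these overlaps are not independent evidence. In absolute terms the largest losses were those of the matrix genes Col1a1, Thbs1, Tnc, Col1a2 and Col3a1, and the largest gains those of Postn, B2m, Lyz2, Rnf213 and Igfbp5.

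Among 20 measured regulators of p53, 5 were at least 2-fold lower and 1 was at least 2-fold higher. Mdm2 had 7786 counts in Zfp871-/- and 1523 in the double null, which made it 6.30-fold lower (log2 -2.66, -2.74 to -2.58). Ccng1, the cyclin G1 gene, whose product recruits a phosphatase to Mdm2, had 17335 and 1609 counts (log2 -3.73, -3.81 to -3.66). These are the feedback genes that p53 itself switches on, and both stood well below their level in Zfp871-/- cells. Phlda3, an inhibitor of AKT signalling, had 5399 and 1271 counts (log2 -2.39, -2.48 to -2.30), and Zmat3, an RNA-binding zinc finger gene, 4690 and 1166 (log2 -2.31, -2.40 to -2.22). Cdkn2a was the exception upward, with 547 counts in Zfp871-/- and 4722 in the double null, 7.0-fold higher (log2 2.81, 2.68 to 2.94). It encodes p16 and p19Arf, the second of which restrains Mdm2, and the counts do not separate both products. Mdm4, the partner of Mdm2, stayed within 2-fold (log2 -0.41, -0.51 to -0.31).

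Half-sites of p53 were searched on both strands in RefSeq promoter windows (GRCm38.p6) that reach from 250 bases before to 50 bases after a start and were found for 10171 of the measured genes. A gene counted as holding a motif where any of its windows did. Half-sites lay in the windows of 16 of 76 p53 target genes (21.1%), of 75 of 651 genes at least 2-fold lower (11.5%), of 56 of 587 at least 2-fold higher (9.54%), and of 851 of all 10171 (8.37%). Among the p53 targets at least 2-fold lower the share was much the same, 8 of 36 (22.2%). Lists of other genes also lay above the share of all genes: mitosis 13.3%, replication 14.3%, interferon-stimulated 14.3% and macrophage 15.4%. A pair of half-sites with at most 13 bases between them was found in 6 genes, and Cdkn1a was the only one of these beyond 2-fold. Upstream stretches of 80 bases are shown for 4 genes that hold a half-site, chosen after the matches were seen, with half-sites in capitals.
Cdkn1a, at the more upstream of its listed starts, plus strand, chr17:29090871-29090950: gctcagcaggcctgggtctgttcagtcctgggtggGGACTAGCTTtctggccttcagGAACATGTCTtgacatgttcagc
Ccng1, minus strand, chr11:40755427-40755506: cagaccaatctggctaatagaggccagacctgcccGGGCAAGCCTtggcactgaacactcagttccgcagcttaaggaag
Ddit4l, plus strand, chr3:137623547-137623626: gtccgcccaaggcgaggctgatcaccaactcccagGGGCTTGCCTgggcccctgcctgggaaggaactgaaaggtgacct
Mdm2, minus strand, chr10:117710900-117710979: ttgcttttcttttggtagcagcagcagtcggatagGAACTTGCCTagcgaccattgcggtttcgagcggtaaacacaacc
A match describes these letters only, and binding of p53 was not measured.

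Cell cycle inhibitors that p53 induces were lower in the double null. Of 22 measured p53 targets of growth arrest, 11 were at least 2-fold lower and 1 was at least 2-fold higher, with a median of -0.92 against 0.00 over all genes. Cdkn1a (chr17:29090976-29100727) had 13103 counts in Zfp871-/- and 341 in the double null, 47.4-fold lower (log2 -5.57, -5.73 to -5.41). Its level per length was an FPKM of 196 and 4.13. Btg2, an antiproliferative adaptor of mRNA decay, had 1782 and 312 counts (log2 -2.82, -2.99 to -2.64). Trp53inp1, which promotes arrest and autophagy, had 3972 and 199 (log2 -4.62, -4.83 to -4.42). Ptprv, a phosphatase gene known as a p53 target in mice, had 110 counts and 1 count, so its ratio is imprecise (log2 -7.08, -12.40 to -4.58).

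Sfn, the 14-3-3 sigma gene and another of the lower members, had 192 and 98 counts (log2 -1.27, -1.64 to -0.91). Not all arrest genes were lower. Gadd45a, a stress sensor that can hold cells before mitosis, had 163 and 328 counts and was somewhat higher (log2 0.71, 0.43 to 0.99). Prdm1, a transcriptional repressor also used by immune cells, was the member past 2-fold in the other direction, with 75 and 351 counts (log2 1.92, 1.56 to 2.30).

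Cell death effectors were mostly lower, with 16 of 23 measured members at least 2-fold lower, 1 at least 2-fold higher and a median of -1.18. With total-count scaling 12 were at least 2-fold lower, while the count over all genes went from 951 to 797. Eda2r, a death receptor of the TNF receptor family, had 2557 counts in Zfp871-/- and 26 in the double null, 121-fold lower (log2 -6.92, -7.54 to -6.37). Perp, a membrane protein of desmosomes and apoptosis, had 439 and 28 (log2 -4.27, -4.88 to -3.72). Dapk1, a death-associated kinase, had 754 and 149 (log2 -2.64, -2.90 to -2.39). Of the mitochondrial branch, Pmaip1 (Noxa) had 1412 and 395 counts (log2 -2.14, -2.30 to -1.98), Bbc3 (Puma) 362 and 182 (log2 -1.29, -1.56 to -1.03), and the pore former Bax 2401 and 1439 (log2 -1.04, -1.14 to -0.95). Fas, the classical death receptor, had 283 and 149 (log2 -1.23, -1.52 to -0.94). Across the 15 measured members of the BCL2 family, 4 were at least 2-fold lower and none at least 2-fold higher, and the lower ones included the survival gene Bcl2l1 (log2 -1.08, -1.18 to -0.98). Casp1, which cleaves interleukin-1 and is abundant in macrophages, was the member past 2-fold in the other direction, with 1 count and 85 counts (log2 6.11, 3.59 to 11.43).

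Of 26 measured p53 targets of repair, redox control and metabolism, 8 were at least 2-fold lower and none at least 2-fold higher, with a median of -0.22. Ddit4l, an inhibitor of mTOR signalling, had 565 counts and 11 counts (log2 -5.98, -7.0 to -5.13). Sesn2, a stress-induced inhibitor of the same pathway, had 2232 and 839 (log2 -1.71, -1.83 to -1.60), and Ercc5, a nuclease of nucleotide excision repair, 1480 and 461 (log2 -1.98, -2.14 to -1.83). Sesn1, a relative of Sesn2, stood on the other side of 0, with 158 and 383 counts (log2 0.98, 0.70 to 1.25). Tigar, a regulator of glycolysis, showed no difference beyond counting error (log2 0.06, -0.13 to 0.26).

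Of 22 other measured genes known as p53 targets, 9 were at least 2-fold lower and none at least 2-fold higher, with a median of -0.90. Ephx1, an epoxide hydrolase of drug metabolism, had 3558 and 291 counts (log2 -3.91, -4.09 to -3.74). Psrc1, a microtubule regulator, had 1548 and 125 (log2 -3.93, -4.21 to -3.67), and Dglucy, an enzyme of D-glutamate breakdown, 807 and 38 (log2 -4.71, -5.22 to -4.24). Joined, the 4 target lists held 92 measured genes, of which 43 were at least 2-fold lower and 2 at least 2-fold higher. The members were listed as known targets and with earlier results of these data in view, so their direction is not independent evidence.

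**Figure D2:**
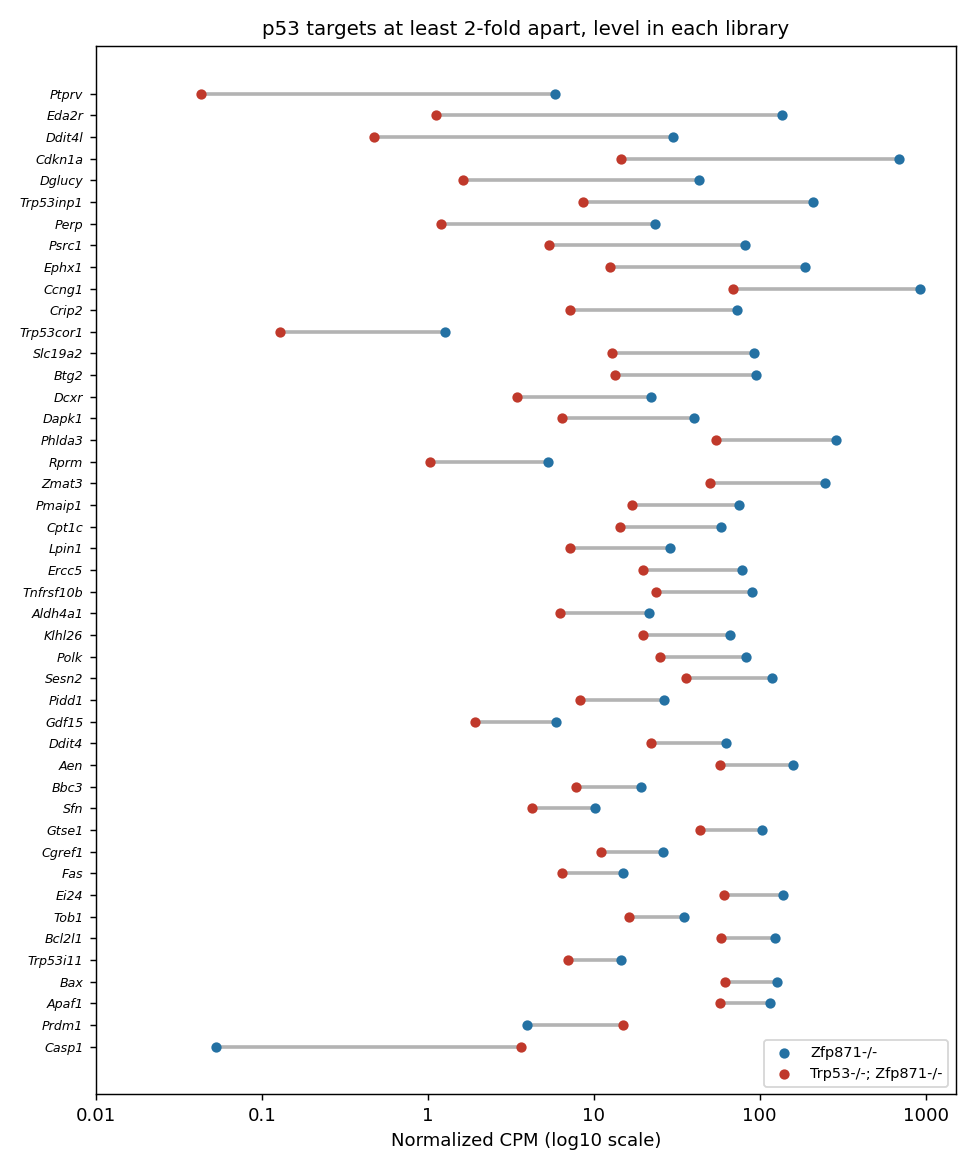
Normalized CPM (log10 scale) of the 45 measured p53 targets at least 2-fold apart, in Zfp871-/- (blue) and the double null (red), 1 library each. The double null lies to the left in 43 of the 45, and Casp1 and Prdm1 are the exceptions.

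Some genes were close to silent without p53. With limits set after the counts were seen, 12 genes had at least 50 counts in Zfp871-/- and at most 3 in the double null, and 11 of these had at most 20 in the Trp53-/- library. Ano3, a member of the anoctamin family of channels and scramblases, had 773 counts and 2 counts, a ratio of -8.90 with an interval of -11.94 to -7.04. Inka2, an inhibitor of a p21-activated kinase, had 1089 and 5 counts and was 269-fold lower (log2 -8.07, -9.69 to -6.84). Olfr1318, an olfactory receptor gene, had 160 counts and none in the double null, 65.7-fold lower with 0 set to 3 counts. Its interval reached up to -5.72. Klhdc7a and 9530053A07Rik also had none, from 51 and 59 counts, 21-fold and 24.2-fold lower on that setting. Their intervals reached up to -4.04 and -4.26. All 3 of these genes were also at 0 in Trp53-/- and had 95, 129 and 94 counts in WT. Gm47283, on chromosome Y, had 202 counts and 0, but 154 in WT and 337 in Trp53-/-, and near-identical copies make its counts uncertain.

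Genes of DNA replication and mitosis were higher in the double null, each by a modest amount and nearly all together. All 36 measured replication genes had intervals above 0, with a median of 0.85, and 15 of them were at least 2-fold higher. All 35 mitosis genes also had intervals above 0, with a median of 0.78, and 3 were at least 2-fold higher, or 11 when libraries are scaled by total counts, which also takes the count over all genes from 823 to 1047. Over all genes, 4376 of 13499 intervals lay above 0. Cdc6, which loads the replicative helicase, had 261 and 1028 counts (log2 1.68, 1.48 to 1.88), and Orc1 of the origin recognition complex 158 and 563 (log2 1.53, 1.27 to 1.80). Of the helicase subunits, Mcm5 had 1480 and 3099 (log2 0.76, 0.67 to 0.85) and Mcm6 2666 and 5008 (log2 0.61, 0.54 to 0.68). Cdk1, the kinase that starts mitosis, had 1338 and 3480 (log2 1.08, 0.99 to 1.17), and Espl1, the protease that separates sister chromatids, 616 and 1640 (log2 1.11, 0.98 to 1.25). Kif20a, a kinesin of cell division, stood lowest of the mitosis genes at 0.29.

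Repair by homologous recombination and the Fanconi pathway, which act in S phase, followed with 9 of 30 genes at least 2-fold higher, none at least 2-fold lower and a median of 0.80. Rad54l, a motor protein of strand exchange, had 192 and 583 counts (log2 1.30, 1.06 to 1.54), and Exo1, an end-resecting nuclease, 310 and 933 (log2 1.29, 1.10 to 1.48). Among 20 genes of chromatin assembly and DNA methylation upkeep the median was 0.51, and Asf1b, a histone chaperone, had 299 and 876 (log2 1.25, 1.06 to 1.44). Uhrf1, which guides Dnmt1 to replicated DNA, had 1367 and 3763 (log2 1.16, 1.07 to 1.25).

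The G1 list of 25 cyclins, kinases and inhibitors was mixed, with 3 members higher and 2 lower by at least 2-fold. Beside Cdkn2a, the higher members were E2f7, a repressor among the E2F factors, at 441 and 1211 counts (log2 1.16, 1.0 to 1.32), and Myc at 1194 and 2991 (log2 1.02, 0.93 to 1.12). Beside Cdkn1a, the lower member was Rb1, the retinoblastoma gene, at 322 and 170 (log2 -1.22, -1.50 to -0.95). Ccnd1, the cyclin D1 gene, had 5854 and 5507 counts (log2 -0.39, -0.44 to -0.34).

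The CHR element TTTGAA, searched on both strands, lay in the windows of 23 of 30 mitosis genes (76.7%) and of 14.3% of all measured genes with a window. The E2F motifs TTTCGCGC and TTTGGCGC lay in those of 10 of 28 replication genes (35.7%) and of 1.76% of all. The CCAAT box, which overlaps neither, was found in 22 of 30 mitosis genes (73.3%) and 42.9% of all. For 2 genes of each list, chosen after the matches were seen, 80 upstream bases are shown with the CHR element or the E2F motif in capitals.
Cdk1, minus strand, chr10:69352941-69353020: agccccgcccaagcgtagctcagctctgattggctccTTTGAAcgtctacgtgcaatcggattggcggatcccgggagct
Espl1, plus strand, chr15:102296213-102296292: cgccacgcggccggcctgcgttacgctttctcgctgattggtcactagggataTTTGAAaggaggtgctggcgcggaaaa
Mcm6, minus strand, chr1:128359772-128359851: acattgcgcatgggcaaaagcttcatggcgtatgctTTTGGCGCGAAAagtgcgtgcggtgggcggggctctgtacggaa
Orc1, plus strand, chr4:108579374-108579453: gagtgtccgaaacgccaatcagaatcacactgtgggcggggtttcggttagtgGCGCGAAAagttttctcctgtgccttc

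Macrophage genes were the group with the largest upward difference. All 36 listed genes passed the filter and all were at least 2-fold higher in the double null, with a median of 3.66. A gene can pass the filter through the double null alone, and the list was written with earlier results of these data in view. The count and the direction are therefore not independent evidence. Their summed level was 123 CPM in Zfp871-/- and 1435 CPM in the double null, beside 107 in WT and 1595 in Trp53-/-. Csf1r, the receptor that macrophages need to survive, had 230 and 2437 counts (log2 3.10, 2.91 to 3.30), and Adgre1, the F4/80 antigen, 118 and 1621 (log2 3.48, 3.21 to 3.76). Lyz2, the lysozyme of myeloid cells, had 695 and 9700 (log2 3.50, 3.39 to 3.61). Mmp12, the macrophage elastase, had 44 and 1640 and was 30.2-fold higher (log2 4.92, 4.49 to 5.38). No listed macrophage gene was higher in Zfp871-/- than in the double null, and each was detected in both. In bulk RNA, more cells of a type and more RNA per cell cannot be told apart.

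With limits set after the counts were seen, 23 genes had at most 3 counts in Zfp871-/- and at least 50 in the double null, and all 23 also had at least 20 counts in Trp53-/-. Cd52, a small surface glycoprotein of leukocytes, had 2 and 148 counts (log2 5.91, 4.03 to 8.97). Clec4e, a lectin receptor of myeloid cells, had 0 and 60 counts, 16.2-fold higher with 0 set to 3 counts. Its interval began at 3.68. Of the osteoclast list, 6 of 10 genes were measured, 3 were at least 2-fold higher and 1 was at least 2-fold lower. Mmp9, a gelatinase of osteoclasts and other myeloid cells, had 291 and 1940 counts (log2 2.44, 2.26 to 2.62).

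**Figure D3:**
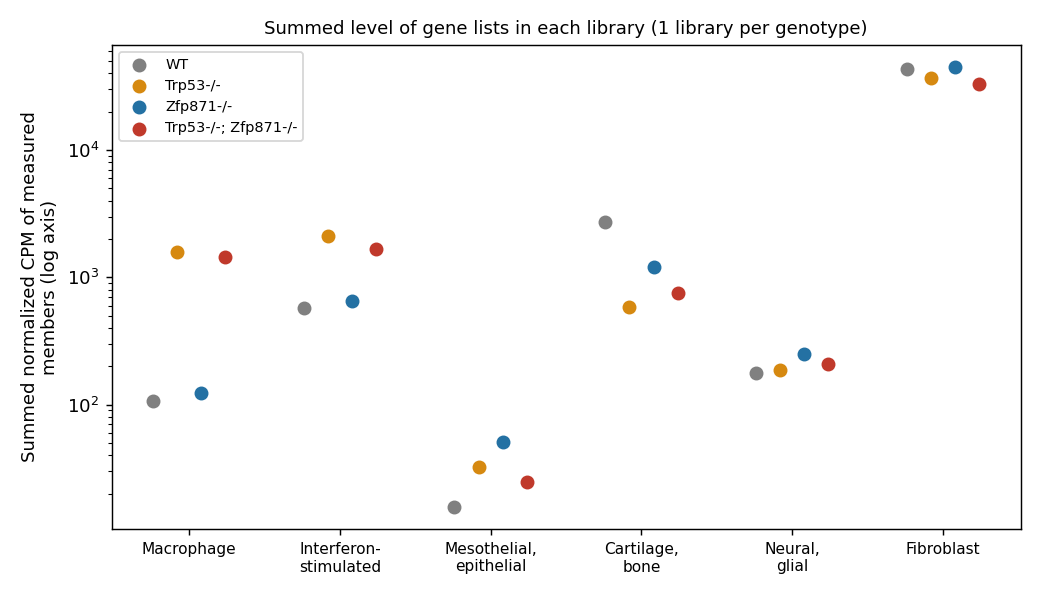
Summed normalized CPM of the measured members of 6 gene lists (log axis) in each of the 4 libraries, 1 point per library. The macrophage sum is 123 CPM in Zfp871-/- and 1435 in the double null, while the fibroblast sum is 45181 CPM in Zfp871-/- and 32797 in the double null.

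Genes induced by interferon were higher in the double null. Of 40 antiviral genes, 30 were higher and none lower by at least 2-fold, with a median of 1.80. Isg15, a ubiquitin-like modifier, had 387 and 2921 counts (log2 2.61, 2.46 to 2.77). Rsad2 (viperin) had 20 and 187 (log2 2.92, 2.25 to 3.67), and Xaf1, a partner of the apoptosis inhibitor XIAP, 187 and 1870 (log2 3.02, 2.80 to 3.24). Irf7, the factor that amplifies the interferon response, had 163 and 850 (log2 2.08, 1.84 to 2.33). The summed level of the 40 genes was 653 CPM in Zfp871-/- and 1656 CPM in the double null. The macrophage sum was also higher, at 123 and 1435 CPM, with all 36 genes detected in each library, and its part in this difference and in those of the immune groups that follow was not tested.

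The interferon-stimulated response element, read as GAAA, any pair of bases and GAAA again, and searched on both strands, lay in the windows of 16 of 28 interferon-stimulated genes (57.1%), of 8.86% of genes at least 2-fold higher and of 3.70% of all. It is shown in capitals for 2 genes chosen after the matches were seen, with overlapping matches run together.
Isg15, minus strand, chr4:156200852-156200931: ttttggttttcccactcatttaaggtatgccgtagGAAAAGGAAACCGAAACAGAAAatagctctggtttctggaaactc
Rsad2, minus strand, chr12:26456528-26456607, match on the opposite strand: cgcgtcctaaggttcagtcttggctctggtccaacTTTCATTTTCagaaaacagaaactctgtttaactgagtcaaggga

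The interferon-inducible GTPases, which attack the vacuoles of intracellular pathogens, had 11 measured members, of which 9 were at least 2-fold higher and none lower by that margin (median 1.18). Gbp3 had 141 and 784 counts (log2 2.17, 1.91 to 2.44), and Irgm1 948 and 2628 (log2 1.17, 1.06 to 1.28). Of 14 measured genes of MHC presentation, 7 were at least 2-fold higher and none lower by that margin (median 0.99). B2m, the light chain of class I molecules, had 6805 and 19994 counts (log2 1.25, 1.21 to 1.29), and the heavy chain gene H2-K1 2355 and 6830 (log2 1.23, 1.17 to 1.30). Tap1, the peptide transporter of the same pathway and a known p53 target, stood below 0, with 861 and 720 counts (log2 -0.56, -0.70 to -0.42).

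Of 22 measured chemokines and their receptors, 15 were higher and 2 lower by at least 2-fold (median 1.46). Ccl9, a ligand made by myeloid cells, had 93 and 1431 counts (log2 3.64, 3.34 to 3.96), Cxcl10, which interferon induces, 18 and 378 (log2 4.09, 3.41 to 4.86), and Ccl5 36 and 400 (log2 3.17, 2.68 to 3.71). The lower ones were Cxcl14, at 2376 and 440 counts (log2 -2.73, -2.88 to -2.59), and Cx3cl1, a membrane-bound ligand, at 623 and 262 (log2 -1.55, -1.77 to -1.34). Inflammatory genes were split, with 9 of 22 higher and 4 lower by at least 2-fold. Il1b, the interleukin-1 beta gene, had 0 and 44 counts, 11.9-fold higher with 0 set to 3 counts. Nlrp3, an inflammasome sensor, had 1 and 52 (log2 5.40, 2.86 to 10.73). Ptgs2, the inducible cyclooxygenase, had 4324 and 2197 (log2 -1.28, -1.35 to -1.20), and Lif, a cytokine of the interleukin-6 family, 300 and 96 (log2 -1.95, -2.29 to -1.61).

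Collagen genes were mostly lower. Of 31 measured members, 10 were at least 2-fold lower and 1 was at least 2-fold higher, 27 had intervals below 0, and the median was -0.79. Over all genes, 32.3% of intervals lay below 0. Their summed level was 53684 CPM in Zfp871-/- and 33838 CPM in the double null. Col1a1, the main chain of type I collagen, had 297940 and 205437 counts (log2 -0.84, -0.85 to -0.83), and Col3a1 81649 and 54589 (log2 -0.88, -0.90 to -0.87). These abundant chains were thus each less than 2-fold lower, and the larger ratios were found among scarcer ones. Col2a1 and Col10a1, collagens of cartilage, had 558 and 50 (log2 -3.78, -4.23 to -3.36) and 183 and 7 counts (log2 -5.01, -6.35 to -3.94). Col18a1, a collagen of basement membranes, had 4145 and 1338 (log2 -1.93, -2.02 to -1.84).

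Of 35 elastic fibre and matricellular genes, 6 were at least 2-fold lower and none at least 2-fold higher (median -0.38). Eln, the elastin gene, had 2773 and 504 counts (log2 -2.76, -2.90 to -2.62), and Ccn5, a secreted regulator of the CCN family, 2539 and 995 (log2 -1.65, -1.76 to -1.55). Postn (periostin) had the largest upward difference in CPM of any protein-coding gene, 2441 against 3385, yet of less than 2-fold (log2 0.47, 0.46 to 0.49). Of 21 proteoglycans, 5 were at least 2-fold lower and 1 at least 2-fold higher (median -0.63), with Prelp at 2534 and 488 counts (log2 -2.68, -2.82 to -2.54) and Lum (lumican) at 597 and 217 (log2 -1.76, -1.99 to -1.54). Of 30 matrix proteases and inhibitors, 5 were at least 2-fold lower and 5 at least 2-fold higher, 16.7% each, against 7.04% and 6.10% of all genes. Timp3, a metalloprotease inhibitor bound to matrix, had 37455 and 16210 counts (log2 -1.51, -1.54 to -1.48), and Mmp2, the gelatinase of fibroblasts, 7233 and 3797 (log2 -1.23, -1.29 to -1.17). Mmp9 and Mmp12, given above, were among the higher ones, beside the macrophage sum.

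The contractile genes of smooth muscle and myofibroblasts had a median close to 0. Of 20 measured, 3 were at least 2-fold lower (15%, against 7.04% of all genes) and none at least 2-fold higher. Intervals lay below 0 for 45% and above 0 for 25%, against 32.3% and 32.4% of all genes, and the median was -0.05. That median turns positive, to 0.09, with total-count scaling. Acta2, the smooth muscle actin gene, had 55752 and 67697 counts, a ratio of -0.02 that turns to 0.12 when libraries are scaled by total counts. Des, the desmin gene, had 157 and 46 (log2 -2.07, -2.58 to -1.59).

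**Figure D4:**
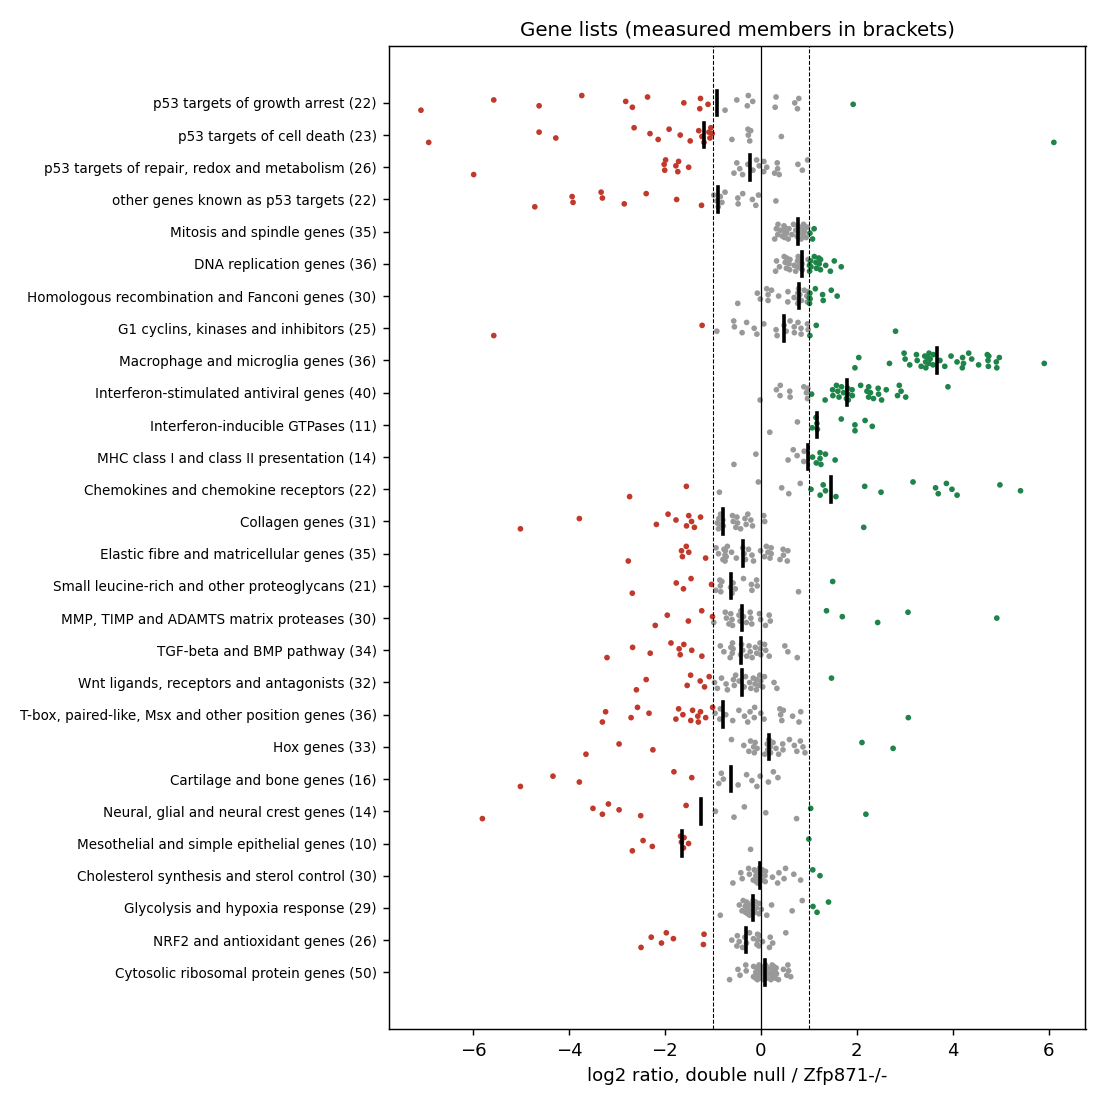
Each point is the log2 ratio (double null over Zfp871-/-) of 1 measured member of a gene list, green at or above 2-fold higher and red at or above 2-fold lower, with the list median as a black bar and the number of measured members in brackets. The macrophage and interferon lists lie to the right, and ribosomal protein genes stay within 2-fold of 0. The p53 targets of arrest, of death and of repair and metabolism reach furthest left.

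Many position genes outside the Hox clusters were lower. Of 36 measured T-box, paired-like, Msx and other position genes, 15 were at least 2-fold lower and 1 at least 2-fold higher. Their median was -0.79, or -0.34 among genes with a CPM of at least 5. Tbx2, a T-box repressor, had 168 and 22 counts (log2 -3.23, -3.95 to -2.59), and Lmx1b, which specifies the dorsal limb, 155 and 38 (log2 -2.33, -2.88 to -1.81). Meox1, a homeobox gene of somites, was the higher one, at 21 and 218 counts (log2 3.07, 2.43 to 3.79). Of 33 measured Hox genes, 3 were at least 2-fold lower (9.09%, against 7.04% of all genes) and 2 at least 2-fold higher (6.06%, against 6.10%), shares close to the background. Hoxd13, which marks the distal limb, had 142 and 14 counts (log2 -3.64, -4.55 to -2.85), Hoxd11 44 and 7 (log2 -2.95, -4.35 to -1.79), and Hoxc11 19 and 101 (log2 2.11, 1.39 to 2.90).

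Only 16 of 32 cartilage and bone genes were measured, 5 of them at least 2-fold lower and none higher by that margin (median -0.63). Sox6, a cartilage transcription factor, had 49 and 3 counts (log2 -4.33, -6.66 to -2.70), whereas Sox9, which acts before it, had 771 and 774 (log2 -0.30, -0.44 to -0.15). Runx2, the factor that starts bone formation, had 1271 and 1553 (log2 -0.01, -0.12 to 0.10). The cartilage collagens Col2a1 and Col10a1 and Sox6 thus stood far lower while these regulators stayed within 2-fold. In the libraries with Zfp871, Col2a1 had 11633 counts in WT and 25 in Trp53-/-, so Zfp871-/- lay between those libraries.

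Neural, mesothelial and epithelial markers were mostly lower in the double null. Of 14 measured neural, glial and neural crest genes, 7 were at least 2-fold lower and 2 at least 2-fold higher, with 10 intervals below 0 and 4 above. Their median was -1.25, or -0.34 among genes with a CPM of at least 5, and their highest ratio was 2.19. Among the lower ones, Sox10, which marks Schwann and neural crest cells, had 55 and 6 counts (log2 -3.50, -5.01 to -2.28). Ngfr, the low-affinity neurotrophin receptor, had 317 and 7 (log2 -5.80, -7.13 to -4.74). The summed level of that list was 249 and 209.8 CPM. Foxd3, a neural crest factor, was at 0 counts in the double null against 22, 9.04-fold lower with 0 set to 3 counts. Of 10 measured mesothelial and simple epithelial genes, 8 were at least 2-fold lower and 1 was at least 2-fold higher, with Msln (mesothelin) at 192 and 37 (log2 -2.68, -3.23 to -2.16) and Wt1 at 35 and 9 (log2 -2.26, -3.50 to -1.18). That list summed to 50.7 and 24.7 CPM. Notch3, a receptor of pericytes, had 457 and 72 (log2 -2.97, -3.35 to -2.61), and Tek, an endothelial receptor, 53 and 19 (log2 -1.78, -2.62 to -1.0). The pericyte list summed to 1033 and 905 CPM and the endothelial list to 187 and 159 CPM. The endothelial genes Pecam1 and Cdh5 did not reach the filter, and the part of these cells in the differences above was not tested.

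Signalling genes leaned towards lower values, beside the 7.04% of all genes at least 2-fold lower and the 6.10% higher. Of 34 measured TGF-beta and BMP genes, 9 were at least 2-fold lower and none at least 2-fold higher (median -0.41). Fst (follistatin), which captures activins, had 3228 and 805 counts (log2 -2.31, -2.42 to -2.19), Gdf6, a BMP-like ligand, 243 and 47 (log2 -2.67, -3.15 to -2.22), and Gdf10 247 and 33 (log2 -3.21, -3.78 to -2.68). Of 32 Wnt genes, 7 were at least 2-fold lower and 1 at least 2-fold higher (median -0.40), and Sfrp1, a secreted Wnt antagonist, had 2271 and 464 (log2 -2.59, -2.74 to -2.45). Of 31 growth factors and receptors, 7 were at least 2-fold lower and none at least 2-fold higher, with Pdgfa, a ligand of the PDGF receptors, at 724 and 148 (log2 -2.59, -2.86 to -2.34) and Gas6, a ligand of the TAM receptor kinases, at 5720 and 1924 (log2 -1.87, -1.95 to -1.80). Notch1 had 2201 and 1019 (log2 -1.41, -1.52 to -1.31), one of 6 of 18 Hedgehog and Notch genes at least 2-fold lower, with 1 at least 2-fold higher. Of 17 IGF genes, 5 were at least 2-fold lower and 2 at least 2-fold higher. Among the binding proteins, Igfbp4 had 3040 and 998 counts (log2 -1.91, -2.01 to -1.81) and Igfbp5 4216 and 12423 (log2 1.26, 1.21 to 1.31).

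Antioxidant genes held a subset that was clearly lower. Of 26 measured NRF2 and antioxidant genes, 7 were at least 2-fold lower and none at least 2-fold higher, with a median of -0.32. Nqo1, a quinone reductase, had 3144 and 796 counts (log2 -2.28, -2.40 to -2.17), Gpx3, a secreted glutathione peroxidase, 951 and 279 (log2 -2.07, -2.27 to -1.88), and Sod3, the extracellular superoxide dismutase, 952 and 208 (log2 -2.50, -2.72 to -2.28). Hmox1, the inducible heme oxygenase, had 2132 and 2977 (log2 0.18, 0.10 to 0.26) and stayed within 2-fold. Serpine2, a protease inhibitor of the serpin list, had 3187 and 335 (log2 -3.55, -3.72 to -3.39), and of 15 measured serpins 3 were at least 2-fold lower and 2 at least 2-fold higher. In the prostaglandin list of 15 measured genes, 4 were at least 2-fold lower and 3 at least 2-fold higher, with Ptgis, the prostacyclin synthase, at 926 and 218 (log2 -2.39, -2.61 to -2.17).

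Lipid and sugar metabolism differed little. Of 30 cholesterol genes 2 were higher (6.67%, close to the 6.10% of all genes) and none lower by at least 2-fold (median -0.02, or 0.12 with total-count scaling). The sterol receptor gene Nr1h3 of that list had 39 and 113 counts (log2 1.23, 0.70 to 1.80). Of 23 fatty acid genes 2 were at least 2-fold lower (8.70%, close to the 7.04% of all genes). Among them was Cpt1c, a carnitine palmitoyltransferase and known p53 target, at 1098 and 335 (log2 -2.01, -2.20 to -1.84). Of 29 glycolysis and hypoxia genes 3 were higher and none lower by at least 2-fold (median -0.16). Cd36, a fatty acid transporter that macrophages also express, had 70 and 1065 (log2 3.63, 3.28 to 4.0). None of 50 cytosolic ribosomal protein genes passed 2-fold, and their median was 0.09.

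The loci around the mutated genes were also examined. Within 5 Mb of Trp53, 16 of 115 measured genes (13.9%) stood at least 2-fold above and 4 (3.48%) at least 2-fold below Zfp871-/-. Within 5 Mb of Zfp871, 15 of 181 were higher (8.29%) and 17 lower (9.39%). Over all genes the shares were 6.10% higher and 7.04% lower. The window around Trp53 holds Cd68 of the macrophage list (109 and 862 counts) and the interferon-stimulated Xaf1, and that around Zfp871 holds Cdkn1a. Of 12 zinc finger genes near Zfp871, 1 was at least 2-fold lower (8.33%, close to the share of all genes) and none higher by that margin.

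The same contrast with Zfp871 present, Trp53-/- against WT, gave 1300 of 13709 genes higher (9.48%) and 1436 lower (10.5%) by at least 2-fold. Of 13215 genes measured in both pairs, 585 were at least 2-fold higher in each, which is 76.7% of the 763 higher genes here and 48.7% of the 1201 higher genes with Zfp871. For lower genes, 627 were shared, 72.8% of 861 here and 52.6% of 1193 with Zfp871. Cdkn1a had a ratio of -5.57 here and -5.57 with Zfp871 present, Mdm2 -2.66 and -2.28, and Ccng1 -3.73 and -3.55. The medians of the arrest and death targets were -0.92 and -1.18 here, and -1.07 and -1.42 there. Mitosis genes had a median of 0.78 here and 1.14 there, replication genes 0.85 and 1.24, and interferon-stimulated genes 1.80 and 2.67. At least 2-fold higher were 3 of 35 mitosis genes here and 26 of 35 there. Their summed level was 2613 CPM in Zfp871-/- and 4050 CPM in the double null, beside 1756 in WT and 3757 in Trp53-/-. Cdkn2a had ratios of 2.81 and 1.60, from 547 counts in Zfp871-/- and 1042 in WT. Whether any of these differ between the backgrounds could not be tested with 1 library per genotype.

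Opposite directions past 2-fold were rare, with 8 genes higher here and lower with Zfp871 present, and 18 the other way. Of those higher here, Apln, a vascular peptide, had 57 and 230 counts here and 328 and 176 in WT and Trp53-/-. Cxcl1, a neutrophil chemokine, had 57 and 173 here and 506 and 106 there. Of those lower here, Krt18, a keratin of simple epithelia, had 75 and 29 here and 9 and 86 there. Most of these counts are low, and in each of these 3 genes Zfp871-/- and WT differed more from each other than did both libraries without p53.

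**Figure D5:**
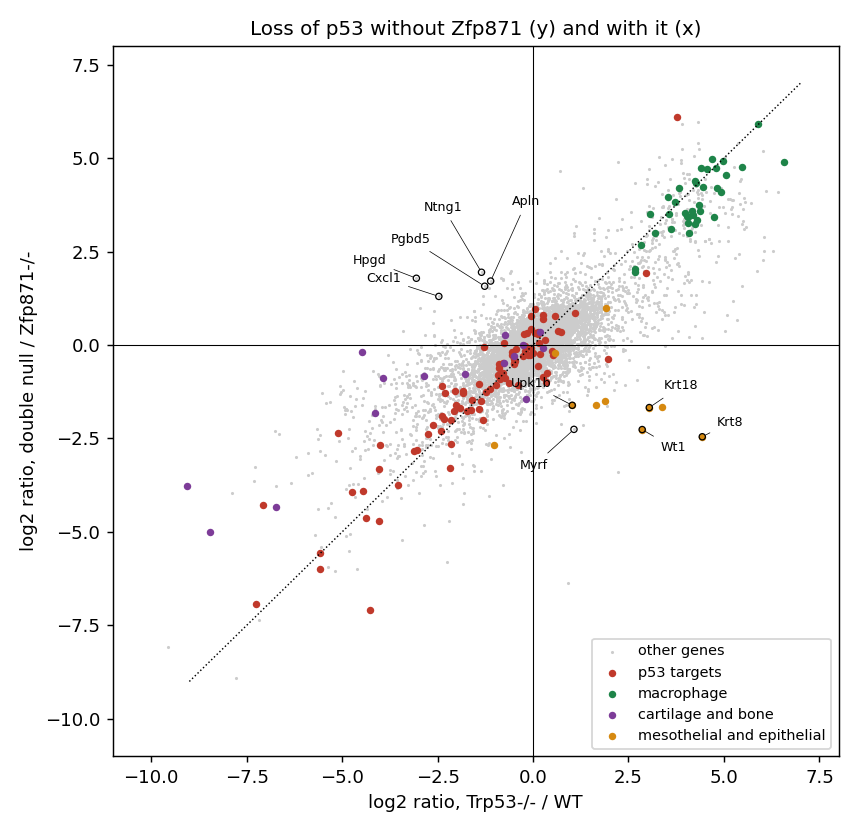
Log2 ratio of Trp53-/- to WT (horizontal) and of the double null to Zfp871-/- (vertical) for genes measured in both pairs, with the dotted line where both are equal. The p53 targets and macrophage genes lie near that line, cartilage genes above it at the left, and the mesothelial and epithelial genes mostly at the lower right, with opposite signs in the pairs.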

How the data were processed

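RNA was sequenced in 4 fibroblast libraries, 1 per genotype, of which 2 are compared here and 2 give the contrast with Zfp871 present. The authors deposited raw counts per Ensembl gene, and the submitters' processing notes name featureCounts, STAR and fastp, with mm10 as the genome. The sources used here do not give the tool versions, the strand setting or the annotation release, so overlapping and antisense genes are uncertain. The deposited normalized tables name no unit and were taken to hold FPKM, since dividing each count by 1 length for the gene and 1 factor for the library gives the value. The factor ratio of the compared libraries was 1.23, equal to that of the DESeq2 size factors. FPKM served only for levels per length and for 25% classes of expression.

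Symbols and positions came from GENCODE M21 (mm10), which held 54495 of 54532 IDs, and the other 37 took 0.00399% and 0.00535% of the counts of the compared libraries. Counts were scaled with TMM factors of edgeR 4.0.16 (R 4.3.3) from all 4 libraries, 0.944 for Zfp871-/- and 1.04 for the double null. Ratios used raw counts with no prior, and a library at 0 was set to 3 counts. Such a ratio depends on that setting and is not a 95% limit, which is the interval end. Intervals are exact (Clopper-Pearson, 95%, SciPy 1.17.1), and the calculation was tested on simulated data. No statistical test was made, and higher or lower means at least 2-fold or the interval given. DESeq2 1.42.0 supplied size factors as an alternative.

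The genes compared, the 55 gene lists and the rules were chosen with earlier results of these data known. Named genes were the 15 highest and 15 lowest protein-coding genes by the interval end nearest 0, the 5 largest gains and 5 largest losses in CPM, the first 4 members of each list and the 4 with the most extreme interval ends, the 5 most extreme each way with opposite directions in both pairs, the targeted genes and sex-linked genes. Cx3cl1, Cxcl14, Dapk1, Gadd45a, Irf7, Irgm1, Kif20a, Lif, Lmx1b, Mcm6, Prdm1, Runx2, Thy1, Tigar, Vim and Zmat3 fall outside these rules and were chosen after their values were seen. Near the 2-fold limit, Cldn1 was just inside with 30 and 74 counts and Uba7 just outside with 144 and 355, and at the filter Rubcnl was inside with 20 and 19 counts and Diras2 outside with 14 and 22. One listed symbol, Tp53i3, had no match. Promoter windows and sequences are from RefSeq (GRCm38.p6).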

Additional observations from a re-analysis of the deposited data

Results flagged for a closer look

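The following genes stood at least 2-fold in one direction between the double null and Zfp871-/- and at least 2-fold in the other between Trp53-/- and WT. The difference between the backgrounds was not tested, since each genotype had 1 library. Higher here and lower with Zfp871 present were Apln, with log2 ratios of 1.71 and -1.11, Cxcl1 with 1.30 and -2.47, Hpgd, which breaks down prostaglandins, with 1.79 and -3.05, Ntng1 with 1.95 and -1.35, and Pgbd5 with 1.57 and -1.27. Lower here and higher with Zfp871 present were Myrf with -2.26 and 1.07, Krt8 with -2.45 and 4.43, Wt1 with -2.26 and 2.86, Upk1b with -1.61 and 1.03, and Krt18 with -1.67 and 3.04. The list of mesothelial and simple epithelial genes had a median of -1.63 here and 1.91 with Zfp871 present, over 10 measured genes. Its summed level was 15.6 CPM in WT, 32.4 in Trp53-/-, 50.7 in Zfp871-/- and 24.7 in the double null.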

How the results depend on the processing

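With 1 library per genotype no replicate could be left out. No paired analysis was possible because each genotype had 1 library and the labels carry no replicate numbers. The counts of genes at least 2-fold apart depended on the filter and the call rule. A CPM of at least 5 left 443 higher and 476 lower, an interval that excludes 2-fold left 446 and 522, and dropping the filter, except for genes with no more than 3 counts in both libraries, gave 1800 and 2074. A CPM of at least 5 also shifted list medians. It took chemokines from 1.46 to 1.03, inflammatory genes from 0.61 to 0.21 and germline genes from -1.43 to -0.25. The senescence list changed sign, from -0.22 to 0.12. Other scalings, a prior count of 2 and protein-coding genes alone kept both counts within 1.5 times of 823 and 951. Total-count scaling raised the share of higher genes among those past 2-fold from 46.4% to 56.8% and the median of all genes from 0.00 to 0.14. It moved the medians of the arrest targets to -0.78, of mitosis genes to 0.92 and of collagens to -0.65, with no change of direction, and turned Acta2 to 0.12. Under it the genes at least 2-fold higher were 5 in place of 3 in the G1 list, 6 in place of 3 in the chromatin list, 4 in place of 2 among Hox genes, 2 in place of 1 among stress genes, 1 in place of none among endothelial genes and 2 in place of none among repair and metabolism targets. Those at least 2-fold lower were 1 in place of 2 among fatty acid genes, 1 in place of 2 among immediate early genes, none in place of 1 in the osteoclast list and 4 in place of 6 among Hedgehog and Notch genes, and the BCL2 family had 2 in place of 4 at least 2-fold lower and 1 in place of none higher. Among p53 targets of cell death, total-count scaling left 12 in place of 16 at least 2-fold lower, and 18 in place of 21 intervals below 0. It also gave more genes at least 2-fold higher among homologous recombination and Fanconi (13 in place of 9), interferon-stimulated (34 in place of 30) and MHC genes (9 in place of 7). The mesothelial list lost its 1 higher gene with DESeq2 size factors or a prior count. List medians were compared with the range from the median lower to the median upper interval end of their members. DESeq2 size factors, TMM of the compared libraries alone and a prior count of 2 kept all 53 measured lists inside it. Total-count scaling took 25 lists outside it, and a CPM of at least 5 took 10. That range is not an interval of the list median. Of 162 genes checked, total-count scaling took 49 outside their own interval and reversed 1, Acta2. Genes with few counts limit the precision, and ratios that rest on 1 to 3 counts in a library have wide intervals.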

Other observations

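Of the germline list, 5 of 18 genes reached the filter and 3 of them were at least 2-fold lower in the double null. Usp26, an X-linked deubiquitinase gene of the testis, had 153 counts in Zfp871-/- and 70 in the double null (log2 -1.43, -1.86 to -1.01), and 0 in both libraries with Zfp871. Rnf17, a Tudor-domain gene of germ cells, had 301 and 311 counts (log2 -0.25, -0.49 to -0.02) beside 10 in WT and 14 in Trp53-/-. Usp26 was thus lower without p53 while Rnf17 stayed within 2-fold.

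Of 28 measured imprinted genes, 3 were at least 2-fold lower and none at least 2-fold higher (median -0.38), with Igf2, a fetal growth factor, at 535 and 260 counts (log2 -1.34, -1.56 to -1.13). Among 26 immediate early transcription factors 2 were at least 2-fold lower (7.69%, against 7.04% of all genes) and 1 at least 2-fold higher (3.85%, against 6.10%). These shares do not exceed the background by much, and Egr3 had 107 and 52 counts (log2 -1.34, -1.85 to -0.85). Of 27 stress response genes 2 were at least 2-fold lower (7.41%) and 1 at least 2-fold higher (3.70%), also no more than about the background. Atf3 of that list had 54 and 168 counts (log2 1.34, 0.89 to 1.81). Of 14 measured mitochondrially encoded genes, mt-Nd3 was at least 2-fold higher, at 38 and 359 counts (log2 2.94, 2.45 to 3.46), and the ribosomal RNA gene mt-Rnr1 at least 2-fold lower, at 4531 and 2279 (log2 -1.29, -1.37 to -1.22). mt-Nd3 had 34 and 309 counts in WT and Trp53-/-.

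The counts of the other lists rest on few members and stand beside the 6.10% of all genes at least 2-fold higher and the 7.04% lower. Of 16 senescence-associated genes 3 were higher and 3 lower by at least 2-fold, of 12 measured adipocyte genes 2 higher and 1 lower, of 7 endothelial genes 0 and 2, of 5 pericyte genes 0 and 2, while of 7 skeletal muscle genes none passed 2-fold.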
